A study of Drosophila melanogaster with 6 samples.

Results

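The Notch genes described here are the ligand gene Delta, the glycosyltransferase gene fng and the E(spl) bHLH genes E(spl)m3-HLH, E(spl)m5-HLH, E(spl)m7-HLH and E(spl)mbeta-HLH. They were chosen by name from a list of 10 genes of the Notch receptor, its ligands, its nuclear factor and its E(spl) bHLH targets, taking every probe set that the platform annotation gives to exactly 1 gene. That rule found 6 of the 10, each with 1 probe set, among 10844 genes named on the array. The receptor gene N, the second ligand gene Ser, the nuclear factor gene Su(H) and E(spl)mgamma-HLH had no probe set of that kind and are not analysed here.

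RNA came from eye-antennal imaginal discs, the larval epithelia of Drosophila melanogaster that form the adult eye and antenna, dissected from wandering larvae of the third instar that were raised at 25 °C. In the 3 RasV12 samples (GMR Gal4/UAS RasV12), the driver GMR-Gal4 expressed Ras locked in its active state, a signal confined to the cells with the driver. In the 3 sSpi samples (GMR Gal4/+; UAS sSpi/+), it expressed secreted Spitz, the ligand of the EGF receptor. Every sample was a pool of 100 discs on 1 Affymetrix array, and the samples of a genotype are biological replicates by their titles. GMR-Gal4 works behind the morphogenetic furrow of the eye disc, the front at which photoreceptors begin to differentiate, so that antennal cells and cells ahead of the furrow gave RNA without the driver. Discs that carry neither transgene are not analysed here, and each value sets 1 genotype against the other. The sSpi samples are described as RasV12 in 1 text field but as sSpi in title, source and genotype, and were grouped by title.

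Notch is a receptor that is cut when a ligand on a neighbouring cell, Delta or Serrate, binds it, and the freed intracellular part enters the nucleus and joins Suppressor of Hairless at target genes. The best known targets are the bHLH genes of the Enhancer of split complex, E(spl), whose products are repressors that recruit Groucho and keep cells from a neural fate. In the developing eye this pathway limits the founding R8 photoreceptor to single cells by lateral inhibition, and later, together with the EGF receptor and Ras, it takes part in the choice of R4, R7 and cone cells. Fringe extends a sugar on Notch that makes the receptor more responsive to Delta and less to Serrate.

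The values are MAS5 signals, the authors' summary of the probes of a probe set on a linear scale, with every array scaled to a common trimmed mean. The 6 arrays had median signals from 39.4 to 41.4. Differences are RasV12 minus sSpi on the scale of log2(signal + 16), which understates the change of dim genes, from limma across 8380 probe sets, with a threshold of 0.05 on the p adjusted over all of them. Eye disc markers were present on all 6 arrays: the photoreceptor gene elav lay between 93.0 and 109 and the retinal transcription factor gene gl between 286 and 334. RasV12 replicate 1 stood apart in the photoreceptor gene chp, at 69.6 against 171 to 232 on the other 5 arrays. In these bulk samples, fewer cells that use a gene and less of its RNA per cell cannot be told apart.

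The comparison of RasV12 with sSpi asks whether Notch signalling genes differ between discs in which Ras itself is activated and discs in which the EGF receptor is given more ligand. None of the 6 genes passed in limma, against 2.61% of all probe sets tested, and on none did the 3 RasV12 signals lie wholly above or below the 3 sSpi signals, which was so for 21.3% of all probe sets tested. The log2 differences ran from -0.01 for E(spl)m3-HLH to 0.34 for E(spl)m5-HLH. An unadjusted p under 0.05 was reached by 2 of the 6, fng and E(spl)m5-HLH, against 15.2% of all probe sets tested. Both were higher in RasV12, and 7.53% of all probe sets tested were higher in RasV12 at such a p. The differences of 5 of the 6 were above 0, with a median of 0.19, while 48.6% of all probe sets tested were above 0, with a median of -0.01. The 95% intervals of the 6 differences reached from -0.34 to 0.67 at their widest, so that each of them left out a change by a log2 value of 1 in either direction. Without RasV12 replicate 1 the log2 differences were 0.30 for Delta, 0.25 for fng, 0.13 for E(spl)mbeta-HLH, 0.17 for E(spl)m7-HLH, -0.03 for E(spl)m3-HLH and 0.25 for E(spl)m5-HLH, and none passed.

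Delta, the ligand that signals from the selected cell to its neighbours, had signals of 250, 320 and 308 in RasV12 replicates 1 to 3 and of 273, 271 and 217 in sSpi replicates 1 to 3. The first RasV12 array lay below sSpi replicates 1 and 2, and the third sSpi array was the lowest of all 6. The means were 293 ± 37.5 in RasV12 and 254 ± 31.8 in sSpi (SD, n = 3). The log2 difference was 0.19 ± 0.13 (SE), with a 95% interval from -0.10 to 0.49, and did not pass (limma adjusted p = 0.54). Of all probe sets tested, 35.5% differed by more than Delta in absolute size.

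The fng signal was 632, 598 and 546 in RasV12 replicates 1 to 3 and 446, 446 and 551 in sSpi replicates 1 to 3. Only the third sSpi array reached the RasV12 values, lying just above the lowest of them, while the other sSpi arrays lay well under all of them. The means were 592 ± 43.5 and 481 ± 61.0 (SD, n = 3). The log2 difference of fng was 0.30 ± 0.11 (SE), with a 95% interval from 0.04 to 0.55 before adjustment, and did not pass (limma adjusted p = 0.25). As a fold it was 1.23, and 18.6% of all probe sets tested differed by more.

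**Figure D1:**
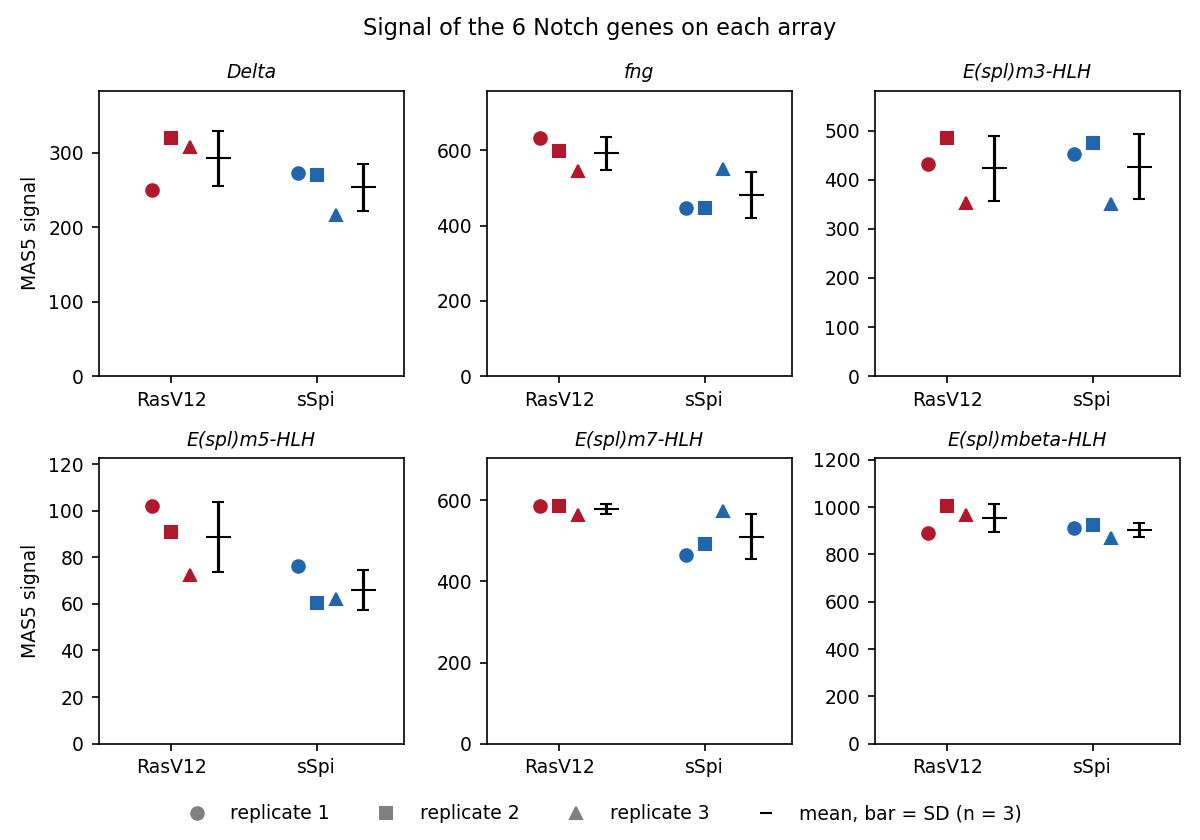
MAS5 signal (vertical axes, linear from 0) of the 6 Notch genes on each array, with the 3 RasV12 arrays in red, the 3 sSpi arrays in blue, a symbol for each replicate number, and the mean with its SD (n = 3) as a black bar. The signals of the 2 genotypes overlap for each of the 6 genes, and for fng and E(spl)m7-HLH the overlap comes from sSpi replicate 3.

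Among the E(spl) bHLH repressors, E(spl)mbeta-HLH had signals of 889, 1006 and 967 in RasV12 replicates 1 to 3 and of 911, 925 and 869 in sSpi replicates 1 to 3. Its highest array was 1.16 times its lowest, the narrowest range of the 6 genes. The log2 difference of 0.08 ± 0.09 (SE, limma adjusted p = 0.74) had a 95% interval from -0.13 to 0.29.

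E(spl)m7-HLH was at 587, 585 and 564 in RasV12 and at 466, 493 and 573 in sSpi. The RasV12 arrays lay close together, with an SD of 12.6, and the sSpi arrays had an SD of 55.9 (n = 3). As for fng, sSpi replicate 3 was the only sSpi array within the RasV12 range. The log2 difference was 0.18 ± 0.10 (SE, limma adjusted p = 0.46), with a 95% interval from -0.05 to 0.41.

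E(spl)m3-HLH was at 432, 485 and 353 in RasV12 and at 453, 475 and 351 in sSpi. In both genotypes the third array was the lowest, and the means of 423 ± 66.2 and 427 ± 66.4 (SD, n = 3) differed by far less than the spread within a genotype. The log2 difference of -0.01 ± 0.15 (SE, limma adjusted p = 0.98) had a 95% interval from -0.34 to 0.32.

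E(spl)m5-HLH was at 102, 91.0 and 72.5 in RasV12 and at 76.1, 60.4 and 62.0 in sSpi. Only the first sSpi array exceeded a RasV12 array, the third. The means were 88.6 ± 15.0 and 66.1 ± 8.63 (SD, n = 3). The log2 difference was 0.34 ± 0.14 (SE), a fold of 1.27, with a 95% interval from 0.02 to 0.67 before adjustment, and did not pass (limma adjusted p = 0.29). It had the widest range over arrays, with the highest signal 1.69 times the lowest, and 14.2% of all probe sets tested differed by more. The E(spl) bHLH genes are close relatives of each other, and the probe sequences were not used here, so shared hybridisation among them was not tested.

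The E(spl) complex holds 12 protein-coding genes in the reference, in the order mdelta, mgamma, mbeta, malpha, Kaz-m1, m2, m3, m4, m5, m6, m7 and m8, of which 7 encode bHLH repressors and 4 Bearded family proteins. Of these 12, 10 had a probe set and 9 were tested. The bHLH gene outside the chosen list, E(spl)mdelta-HLH, which is known for its use in the R4 photoreceptor, differed by 0.15 ± 0.12 on the log2 scale (SE, limma adjusted p = 0.60), within the range of the 4 bHLH genes above. E(spl)m3-HLH has as neighbours E(spl)m2-BFM and E(spl)m4-BFM, and their log2 differences were -0.01 ± 0.15, 0.74 ± 0.12 and 0.36 ± 0.10 in turn. Of these 3 only E(spl)m2-BFM passed (limma adjusted p = 0.012), and it did not without RasV12 replicate 2 or sSpi replicates 1 or 2, at adjusted p up to 0.067. E(spl)malpha-BFM, next to E(spl)mbeta-HLH, was at -0.35 ± 0.11 against 0.08 ± 0.09 and did not pass (limma adjusted p = 0.15). Kaz-m1, which is of neither family, was at 0.69 ± 0.28 and did not pass (limma adjusted p = 0.27). The difference between neighbouring genes was not tested.

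**Figure D2:**
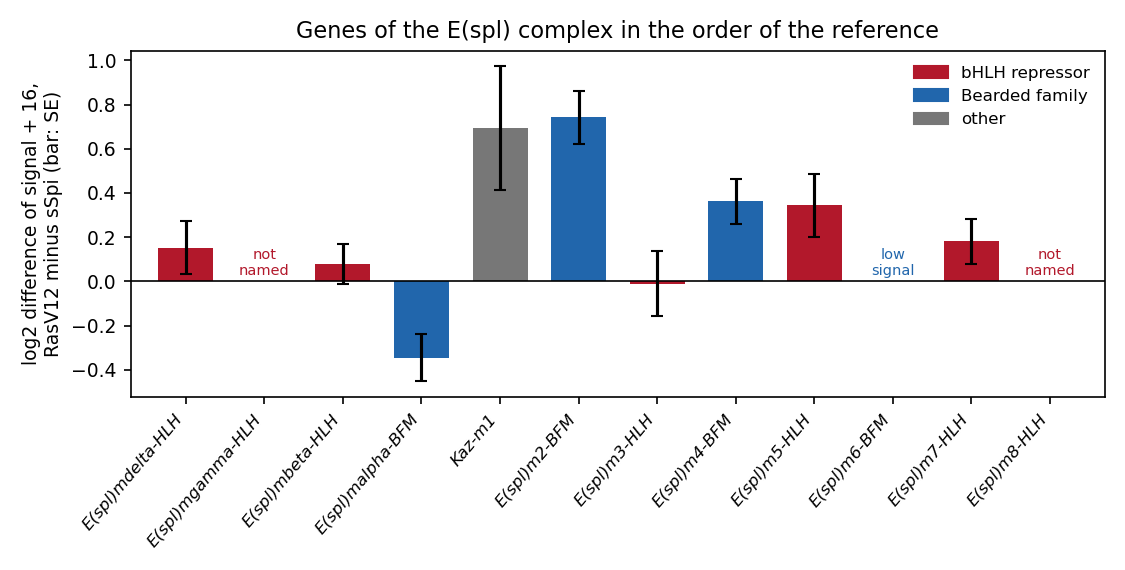
Log2 difference of signal + 16, RasV12 minus sSpi (vertical axis; error bars are the SE of the limma fit), for the genes of the E(spl) complex in reference order (horizontal axis), with bHLH genes in red, Bearded family genes in blue and Kaz-m1 in grey. The bHLH genes lie between -0.01 and 0.34, while E(spl)m2-BFM is at 0.74, Kaz-m1 at 0.69 and E(spl)malpha-BFM at -0.35. There is no named probe set for 2 bHLH genes, and E(spl)m6-BFM lies below the signal filter.

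The 6 genes did not all vary alike over the arrays. Of 15 pairs, 2 had a Pearson's r over 0.9 across the 6 arrays, both singled out after their values were seen. They were Delta with E(spl)mbeta-HLH, at 0.956, and fng with E(spl)m7-HLH, at 0.953. After each genotype's mean was taken out, the values were 0.936 and 0.906, so both pairs also varied together within genotypes. Delta and fng, in contrast, had an r of -0.01 across the arrays and of -0.85 within genotypes. These are descriptions of 6 arrays that share 2 genotypes.

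Delta and E(spl)mbeta-HLH followed the genes induced by ecdysone, the moulting steroid, from array to array. The score of an ecdysone response list of 15 tested genes, their mean log2 deviation, was -0.40, 0.49 and 0.57 in RasV12 replicates 1 to 3 and 0.01, -0.16 and -0.50 in sSpi replicates 1 to 3. The arrays with the 2 lowest scores, RasV12 replicate 1 and sSpi replicate 3, were the 2 lowest for Delta and for E(spl)mbeta-HLH, and the arrays with the 2 highest scores were the 2 highest for both. Pearson's r with the score was 0.942 for Delta and 0.933 for E(spl)mbeta-HLH, and 0.918 and 0.905 within genotypes. How many of all genes tested followed the score as closely was not counted, so this is not shown to be particular to them. For fng, E(spl)m3-HLH, E(spl)m5-HLH and E(spl)m7-HLH it was 0.04, 0.09, 0.17 and 0.07, and within genotypes -0.74, 0.13, -0.43 and -0.54. The score was itself not free of genotype. Of 19 tested probe sets of the list, 14 differences were above 0, against 48.6% of all probe sets tested. At an unadjusted limma p under 0.05, 5 were higher in RasV12 and none lower, against 7.53% of all higher in RasV12 and 15.2% in both directions. Adjusting for the score can therefore take out a difference between genotypes. With the score as a covariate, the log2 difference of Delta was 0.02 ± 0.11 and that of E(spl)mbeta-HLH 0.01 ± 0.10 (SE). In the same fit fng was at 0.40 ± 0.11, E(spl)m5-HLH at 0.43 ± 0.16 and E(spl)m7-HLH at 0.24 ± 0.11 (limma adjusted p = 0.083, 0.20 and 0.28, n = 3), and none of them passed. Whether ecdysone lies behind any of these values was not tested.

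**Figure D3:**
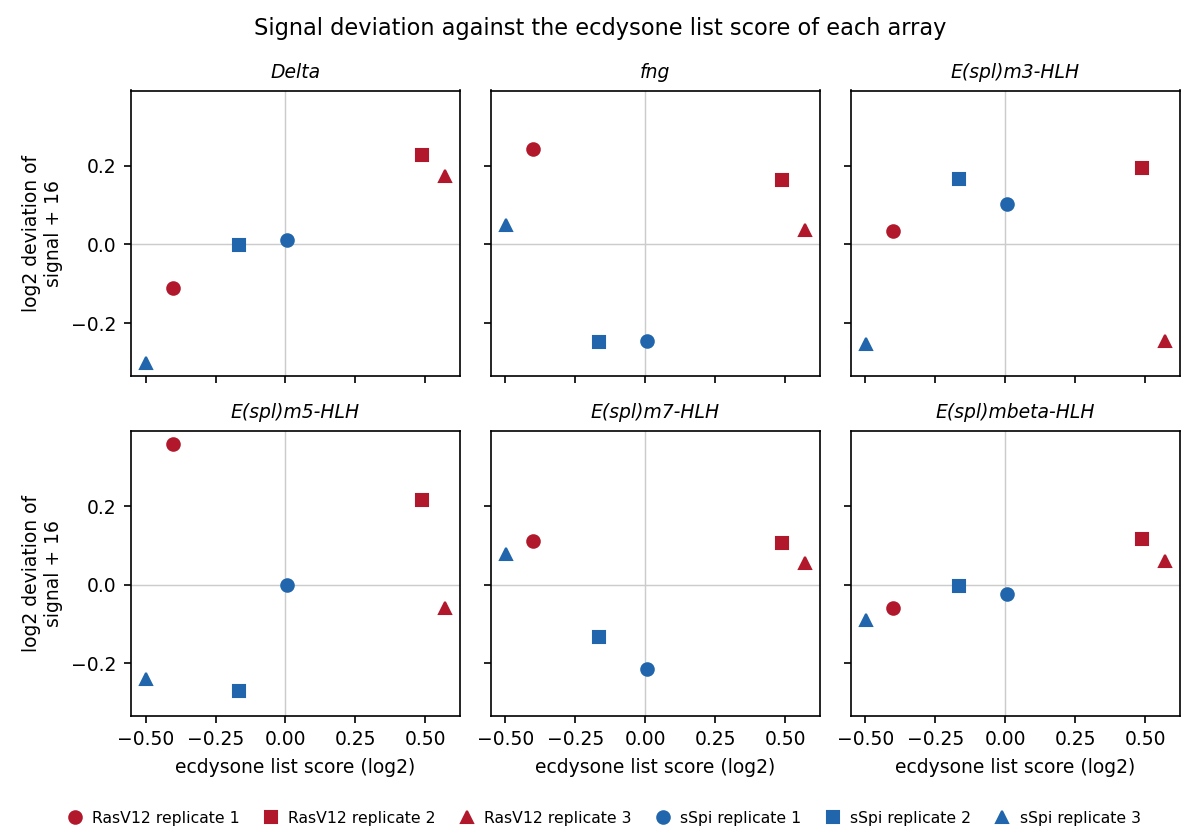
Deviation of log2(signal + 16) from the mean over 6 arrays (vertical axes) against the ecdysone list score of the array (horizontal axes, log2), 1 panel per Notch gene, with RasV12 arrays in red, sSpi arrays in blue and a symbol for each replicate number. Delta and E(spl)mbeta-HLH rise with the score across both genotypes, whereas fng and E(spl)m7-HLH are low on sSpi replicates 1 and 2 alone.

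The genes most like Delta over the 6 arrays, among 6762 others, were fat-spondin, ImpL2, CG31792, MICAL-like and ImpE2, with Pearson's r from 0.974 to 0.983. ImpL2, which encodes a secreted protein that binds insulin-like peptides, and ImpE2 are ecdysone-inducible genes, and both were on the ecdysone list. The ImpL2 signal was 424, 866 and 940 in RasV12 and 589, 524 and 316 in sSpi, the same order of arrays as that of the score. ImpL2 and ImpE2 are both averaged into the score, so their likeness to Delta is not independent of it. The genes most like the mean of the 4 E(spl) bHLH genes were Twdlbeta, the dystroglycan gene Dg, the lipophorin receptor gene LpR2, CG8837 and CG17721, with r from 0.970 to 0.982. None of these 10 genes passed in limma, at adjusted p from 0.31 to 0.80.

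Some other genes of the pathway passed. Of 41 probe sets of 35 other Notch pathway genes tested, 4 were higher and 3 lower in RasV12 in limma, against 1.30% and 1.31% of all probe sets tested. In the list for Notch processing and trafficking, 1 of 19 probe sets rose and 1 fell. The one that rose was numb, which encodes an endocytic adaptor that inhibits Notch, with signals of 597, 633 and 714 in RasV12 and 305, 292 and 329 in sSpi. Every RasV12 array had a numb signal far above every sSpi array, and the log2 difference was 1.03 ± 0.10 (SE, limma adjusted p = 0.0012, n = 3). The one that fell was rumi, which encodes the enzyme that puts O-glucose on Notch, with signals of 321, 274 and 245 in RasV12 and 622, 533 and 508 in sSpi. Its log2 difference was -0.95 ± 0.13 (SE, limma adjusted p = 0.0047, n = 3), and both calls held in all 17 other settings.

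Among the nuclear cofactors of Notch, 2 of 14 probe sets fell and none rose. One of the 2 belongs to mam, which encodes the coactivator Mastermind, at 616, 668 and 753 in RasV12 and 1495, 1206 and 1150 in sSpi. It differed by -0.90 ± 0.12 on the log2 scale (SE, limma adjusted p = 0.0055, n = 3). That probe set has the suffix by which Affymetrix marks probes shared within a sequence family, and the second mam probe set, without it, was at -0.23 ± 0.21 and did not pass (adjusted p = 0.66). The other that fell was nej, the gene of the acetyltransferase CBP, at -0.54 ± 0.11 (limma adjusted p = 0.034, n = 3). It no longer passed in 9 of 17 other settings, at adjusted p up to 0.15. A second nej probe set, with signals from 2.67 to 11.5, lay below the signal filter and was not tested. Genes of the co-repressor complex used by the E(spl) bHLH proteins did not pass: the Groucho gene gro, named for its role, had log2 differences of 0.04 ± 0.11 and -0.12 ± 0.10 from its 2 probe sets. The Bearded family, small proteins that inhibit Neuralized, gave the other 3 that rose, E(spl)m2-BFM, Brd and 1 of 2 Ocho probe sets, of 7 probe sets tested, and none fell. Brd, at 0.73 ± 0.15 (limma adjusted p = 0.040, n = 3), lost its call in 8 of 17 other settings, at adjusted p up to 0.18. Ocho, at 0.99 ± 0.16 (limma adjusted p = 0.014, n = 3), lost it in 3 of 15, at adjusted p up to 0.064. That Ocho probe set was dim, with sSpi signals from 19.7 to 32.1. The second Ocho probe set was at 0.42 ± 0.12 and did not pass (limma adjusted p = 0.12).

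The ubiquitin ligase gene neur, whose product drives the endocytosis of Delta that signalling needs, had 2 probe sets that disagreed and did not pass. The signals were 119, 94.3 and 95.6 in RasV12 against 70.6, 39.0 and 63.0 in sSpi from the one, and 169, 172 and 161 against 205, 215 and 168 from the second. On the log2 scale the first differed by 0.71 ± 0.18 (SE, limma adjusted p = 0.080, n = 3) and the second by -0.21 ± 0.12 (0.45), and neur was chosen for the text with these values known.

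**Figure D4:**
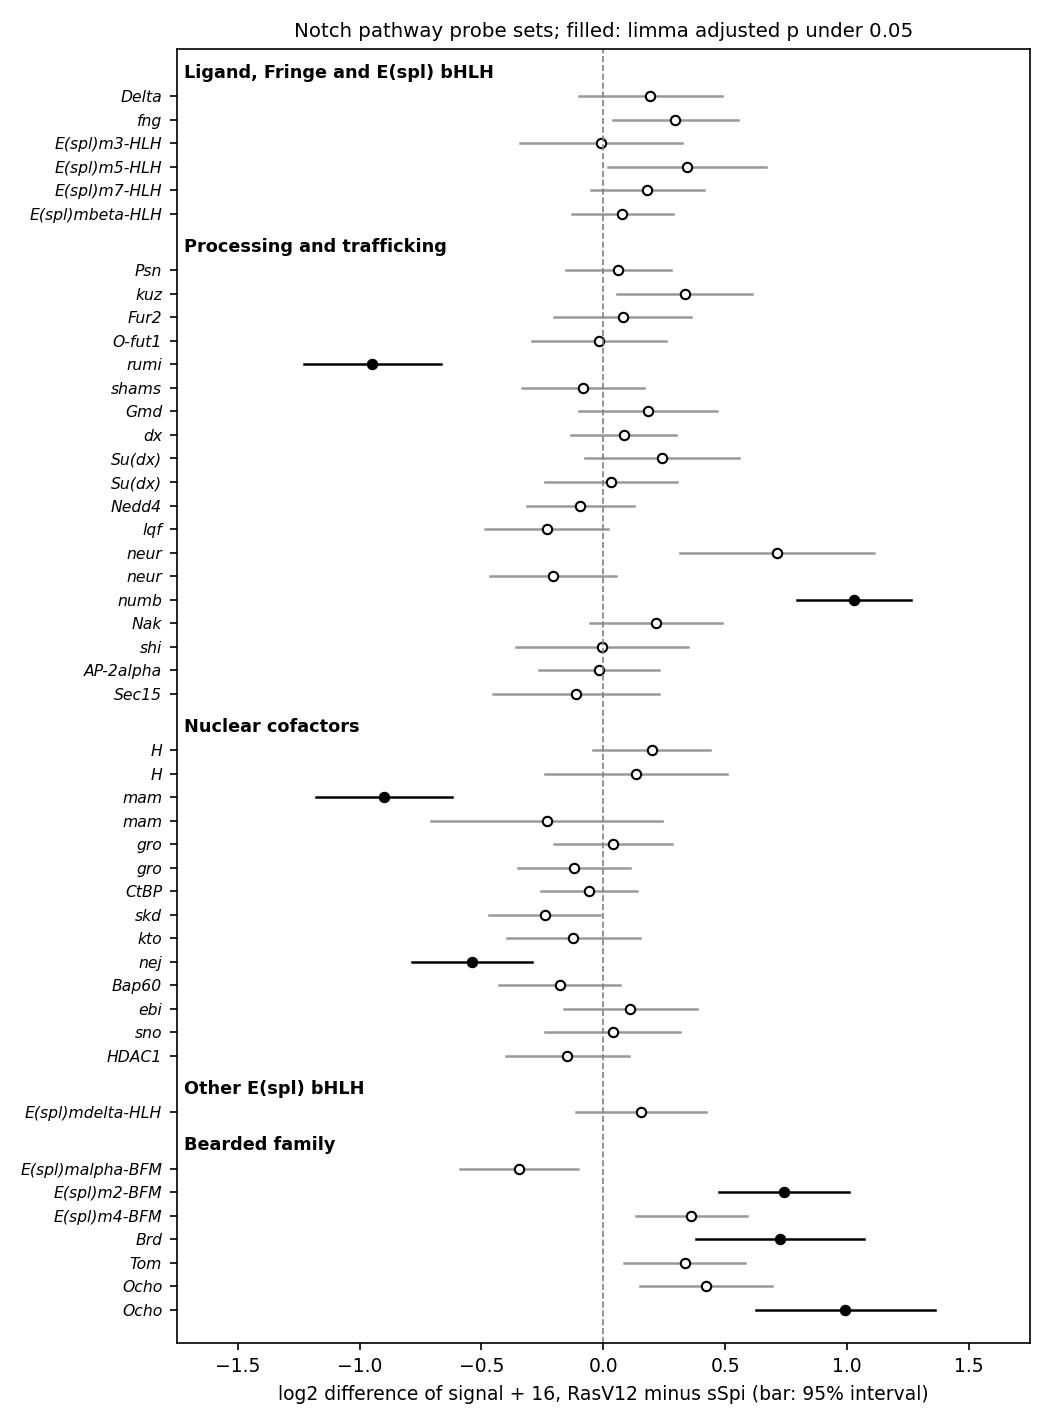
Log2 difference of signal + 16, RasV12 minus sSpi (horizontal axis), for the 6 Notch genes and for each tested probe set of 35 other pathway genes, grouped by role, with 95% intervals as bars and filled points where the limma adjusted p was under 0.05. The 6 genes at the top have open points between -0.01 and 0.34, while filled points reach 1.03 for numb and -0.95 for rumi.

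Lists of genes that act with Notch in the eye gave the following counts. Of 4 probe sets of related bHLH-Orange genes, none passed in limma or at an unadjusted p of 0.05, with hry at -0.15 and cwo at -0.05. Of 5 dorsoventral regulators none passed in limma and 3 were under 0.05 before adjustment, against 15.2% of all probe sets tested. Of these, pnr, at 0.57, passed without RasV12 replicate 1 (adjusted p = 0.022) and mirr, at -0.43, with the ecdysone covariate (0.037). Of 7 proneural and R8 genes, ato rose, at 1.10 ± 0.11, and ro fell, at -0.61 ± 0.12 (limma adjusted p = 0.0012 and 0.027, n = 3), and ro lost its call in 6 of 17 other settings, at adjusted p up to 0.12. Of 5 cone and pigment cell genes with Notch input, lz and B-H1 rose, at 1.90 ± 0.22 and 1.35 ± 0.17 (limma adjusted p = 0.0025 and 0.0037, n = 3), and none fell.

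Markers of other cells were summed per array. Those of 8 of 10 photoreceptor neuron genes were 1330 to 1675 in RasV12 and 1886 to 1934 in sSpi, and without the cell adhesion gene Nrg they overlapped, at 863 to 1211 and 1195 to 1237. Nrg was the only 1 of 9 photoreceptor probe sets tested that passed as lower in RasV12. It did not pass under 4 of the 17 alternatives (limma adjusted p up to 0.072). These were the blocked fit and the fits without replicate 2 of RasV12, or replicate 2 or 3 of sSpi. Of the 9, 6 had log2 differences below 0 and 3 above, with a median of -0.22. At an unadjusted limma p under 0.05, 2 were lower and none higher, against 15.2% of all probe sets tested in both directions. Besides Nrg this was brp, at -0.85 ± 0.31 (SE, limma adjusted p = 0.22), with a signal of 3.31 on RasV12 replicate 1. The sums of 8 of 9 glial genes were 1162 to 1333 and 1699 to 1799, and without the septate junction gene Gli they overlapped, at 470 to 555 and 535 to 631. Gli was the only 1 of 7 glial probe sets tested that passed as lower in RasV12. Of the 7, 5 had log2 differences below 0 and 2 above, with a median of -0.30. At an unadjusted limma p under 0.05, 3 were lower and 1 higher, against 15.2% of all probe sets tested in both directions. The glial gene nrv2, picked out after its values were seen, had a log2 difference of 0.58 and did not pass (limma adjusted p = 0.18). Muscle markers, 4 of 7 named, summed to 677 on RasV12 replicate 1 and 868 on sSpi replicate 3, the 2 arrays lowest in Delta and E(spl)mbeta-HLH, against 238 to 399 on the other 4. Salivary gland markers, 7 of 7, summed to 880 on sSpi replicate 2 and to 122 to 238 on the other 5. Hemocyte markers, 9 of 10, lay between 490 and 891 and antennal markers, 5 of 6, between 1104 and 1309, with overlapping genotypes. The antennal list was also meant for the peripodial epithelium, but its gene hth had no probe set, and peripodial cells were not assessed. None of 37 tested probe sets of the muscle, salivary, hemocyte, antennal and ecdysone lists passed in limma, and 9 of the 37 were under 0.05 before adjustment, against 15.2% of all probe sets tested. In other settings, ImpE3 of the ecdysone list passed in 3 of 17, at adjusted p down to 0.0071, and dan of the antennal list passed without RasV12 replicate 1 (0.040). The hemocyte gene NimC1, below the signal filter at 3.04 to 6.54 in RasV12 and 17.3 to 25.2 in sSpi, passed in the fit without that filter (limma adjusted p = 0.026). The part of these cells in the values of the Notch genes was not tested.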

How the data were processed

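Eye-antennal disc RNA of 3 RasV12 and 3 sSpi samples was measured on single-colour Affymetrix arrays. The deposited values are intensities, 1 linear MAS5 signal per probe set, made by the authors with MAS5 per the submitters' processing notes, whose version and genome build are not given in the sources used here. Each array's mean was 100 after trimming 2% from each end.

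Of 13966 probe sets that are not controls, 12443 carried 1 gene symbol, updated through gene identifiers to the RefSeq table of Release 6 plus ISO1 MT, which was also used for gene order. No sequence was used, and coordinates served only to find and order the genes of the E(spl) complex. The upper 60% by mean signal, 8380 probe sets with means above 23.4, were fitted as log2(signal + 16) with lmFit and eBayes with trend (limma 3.58.1, R 4.3.3). The two-sided p-values were adjusted over all of them by Benjamini-Hochberg, and the fit was tested on simulated data. In 5 simulations it recovered 28.0% of changes by a log2 value of 0.5, 81.8% of 1 and 98.4% of 2. Changes of 0.5 were thus missed more often than found. Of the calls in the simulations, 4.20% were false on average. The simulated probe sets varied independently of each other, so shifts shared by many probe sets on an array were not covered. With 3 arrays per genotype, the number of arrays limits the precision.

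The Notch genes and the lists were chosen with earlier results of these data known. Named are each chosen gene, up to 6 called probe sets per list or the 2 with the smallest p (for the muscle, salivary, hemocyte, antennal and ecdysone lists counts and the genes called in another setting), and the 5 genes most like Delta and the E(spl) bHLH mean. Replicate numbers did not pair the arrays: deviations of same-numbered arrays correlated at -0.11, -0.04 and -0.14. Figures were drawn with matplotlib 3.10.9.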

Additional observations from a re-analysis of the deposited data

How the results depend on the processing

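The count of 0 called among the 6 Notch genes was the same in all 17 other settings: quantile normalization, pseudocounts of 64 and 1, median scaling, the brighter 40% of probe sets or no filter, no trend in eBayes, 1 probe set per gene, a replicate block, each array left out, RasV12 replicate 1 and sSpi replicate 2 left out together, and the ecdysone list score as a covariate. The lowest adjusted p any of them reached was 0.083, for fng with the covariate. The log2 differences ranged from 0.02 to 0.35 for Delta, from 0.20 to 0.40 for fng, from 0.20 to 0.46 for E(spl)m5-HLH, from 0.12 to 0.26 for E(spl)m7-HLH and from 0.01 to 0.15 for E(spl)mbeta-HLH, lowest with the covariate for Delta and E(spl)mbeta-HLH. That of E(spl)m3-HLH changed sign in 4 settings, between -0.14 and 0.11. The 7 calls among 41 other pathway probe sets were 4 without the signal filter (where 45 were tested) and 4 without RasV12 replicate 1 and sSpi replicate 2, and between 3 and 6 without single arrays: 4 without RasV12 replicate 2 or sSpi replicate 1 and 3 without sSpi replicate 2. Over the whole table, 219 probe sets passed, 138 without the filter (13966 tested), 383 with the covariate and between 86 and 369 without single arrays; the cause was not tested. With the replicate block 159 passed, none of them among the 6 genes, and the calls of nej, Brd and Nrg ended. Low mean signals over the 6 arrays kept E(spl)m6-BFM and sens out of the test.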

Other observations

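The zinc finger gene sens, which marks the R8 photoreceptor downstream of ato and was on the proneural list, had a mean over the 6 arrays below the signal filter and was therefore not among the probe sets tested. Its signals were 34.2, 34.8 and 34.4 in RasV12 replicates 1 to 3 and 11.9, 3.94 and 8.38 in sSpi replicates 1 to 3. Every RasV12 array was above every sSpi array. In the fit without the filter sens passed (limma adjusted p = 0.024, n = 3), and no fold is given, since with sSpi signals this low its size depends on the pseudocount. This gene was picked out once its values had been seen. In the main fit, the E(spl) bHLH genes tested, whose products restrain proneural genes, had log2 differences between -0.01 and 0.34. E(spl)mgamma-HLH and E(spl)m8-HLH had no named probe set. Any link between these genes and the sens signals was not tested.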
